A study of Mus musculus with 12 samples.

Results

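Pou3f1, Sox9, Fam107a and Git1 are 4 of the 23183 gene symbols counted in RNA sequencing libraries of the ventral hippocampus from 12 mice. They were chosen by their measured levels: in an earlier look at these same libraries, both groups of running mice lay above the sedentary stressed mice. The rise over sedentary stressed mice is therefore described here without a test. All mice were wild-type males of the C57BL/6J strain. An age of 8 weeks is recorded for all 12, as the age of naive mice. Effective responders (SES, mice 9, 10 and 12) were stress-susceptible mice given a running wheel after restraint, and their behaviour improved. Ineffective responders (SER, mice 6, 19 and 20) had the same restraint and a wheel, and their behaviour showed little or no benefit. Sedentary stress-susceptible mice (SS, mice 18, 19 and 21) had restraint without a wheel. Controls (C, mice 2, 8 and 12) had neither. Restraint lasted 2 hours a day on 14 days. The titles give 14 days of running and the protocol gives 4 weeks. SES, SER and SS are behavioural classes within the stressed mice, and wheel access was shared by SES and SER. No group of unstressed mice with a wheel was analysed here. Mice numbered alike in different groups, such as SER mouse 19 and SS mouse 19, are separate animals.

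The 4 genes act in different places in a cell. Pou3f1, also called SCIP, encodes a POU-domain transcription factor that marks pyramidal neurons of hippocampal field CA1 and is known from Schwann cells as a regulator of myelination. Sox9 encodes a transcription factor with an HMG box that starts gliogenesis in the embryo and is kept in astrocytes of the adult brain. Fam107a, also called DRR1, encodes a protein that binds actin filaments, and its expression is raised by stress and glucocorticoids. Git1 encodes a scaffold protein and GTPase-activating protein for Arf, which holds PIX exchange factors, PAK kinases and paxillin together at synapses and focal adhesions.

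Each gene had 1 row in the deposited tables, so no division between isoforms could be followed. Pou3f1 lies on chromosome 4 (124657646 to 124660655, plus strand) in a single exon. Sox9 lies on chromosome 11 (112782210 to 112787757, plus strand) and its transcript has 3 exons. Git1 lies on the same chromosome (77493288 to 77507774, plus strand) with 20 exons, and Fam107a lies on chromosome 14 (8296270 to 8317607, minus strand), where the measured transcript has 4 exons. These positions are RefSeq's on GRCm38.p6, and exon counts are those of the matching GENCODE M21 transcripts. No other GENCODE gene overlapped any of the 4 spans. The start regions that RefSeq's promoter table holds for 2 of the members, all chosen for higher levels in running mice, are shown, from 250 bases before to 50 bases after the start. The Fam107a window (chr14:8309730-8310029, minus strand) belongs to a start listed within the gene, and no start was matched to the measured transcript here. The Git1 window (chr11:77493038-77493337, plus strand) belongs to the first base of the gene. Capitals mark matches, on either strand, to GGGCGG (the GC box of Sp factors), CCAAT, or TGTTCT (a hexamer of the glucocorticoid receptor's element).
Fam107a: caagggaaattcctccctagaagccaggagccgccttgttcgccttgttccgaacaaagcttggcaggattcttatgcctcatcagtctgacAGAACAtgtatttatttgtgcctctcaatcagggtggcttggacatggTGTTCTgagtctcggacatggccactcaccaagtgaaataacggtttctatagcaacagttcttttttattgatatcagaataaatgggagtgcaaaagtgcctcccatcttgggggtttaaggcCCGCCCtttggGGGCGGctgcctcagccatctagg
Git1: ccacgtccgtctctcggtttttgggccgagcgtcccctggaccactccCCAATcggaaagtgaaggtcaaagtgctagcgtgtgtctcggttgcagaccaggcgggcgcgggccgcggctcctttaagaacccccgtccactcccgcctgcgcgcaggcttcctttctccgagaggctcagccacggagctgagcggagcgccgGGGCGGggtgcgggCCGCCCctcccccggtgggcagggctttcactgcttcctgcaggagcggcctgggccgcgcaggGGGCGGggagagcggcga
The Fam107a window held 2 matches to TGTTCT, 1 on each strand, and 2 to GGGCGG, and 49.0% of its bases were G or C. The Git1 window held 3 matches to GGGCGG and 1 to CCAAT, and 70.7% of its bases were G or C, against a median of 52.7% over 32817 promoter windows of the same length. Of those windows, 19.0% held TGTTCT, 35.6% GGGCGG and 37.4% CCAAT. Neither window held TATAAA (13.6% of all windows), TGACG (20.8%), CACGTG (7.15%), ATGCAAA (4.63%), part of the octamer bound by POU factors, or ACAATG (12.6%), a form of the SOX motif. The table lists further starts for both genes, and the window at the other Git1 start held 10 matches to GGGCGG and none to CCAAT. The window at the first base of the Fam107a gene held 1 match to TGACG and none to TGTTCT or GGGCGG. These matches are letters in a window and carry no measurement of binding.

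Levels are in counts per 1000000 counts of a library (CPM) after scaling between libraries. The libraries differed in what else they held. Totals ran from 9323607 to 15707516 counts. The summed level of 10 choroid plexus markers was 1310, 6121 and 3001 CPM in SES mice 9, 10 and 12 and 199 to 1441 CPM in SER. SS mouse 18 had 6658 CPM, where SS mice 19 and 21 had 93.9 and 98.2 CPM. C mouse 2 had 4644 CPM, where C mice 8 and 12 had 139 and 211 CPM. The summed level of 6 nuclear noncoding RNAs, led by Malat1, was 2856 to 3949 CPM in SES and 2067 to 2859 CPM in SER. It was 1270 CPM in SS mouse 18, 10367 and 11970 CPM in SS mice 19 and 21, and 1305 to 1714 CPM in C. The summed level of 5 thalamus markers was 146 CPM in SS mouse 18 and 178 CPM in C mouse 2. It was 39.4 and 39.6 CPM in SS mice 19 and 21 and 42.8 and 50.3 CPM in C mice 8 and 12. SES mice had 50.3 to 59.98 CPM and SER mice 48.4 to 59.4 CPM. Whether tissue from outside the hippocampus entered these libraries was not tested. The SS group thus held libraries of 2 kinds, and the members' differences are given further on with each kind left out. In bulk tissue, more cells of a type and more RNA per cell cannot be told apart.

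Pou3f1 had 102, 108 and 93.6 CPM in SES mice 9, 10 and 12 and 117, 105 and 114 CPM in SER mice 6, 19 and 20. It had 59.0, 66.4 and 50.7 CPM in SS mice 18, 19 and 21 and 75.8, 70.3 and 89.5 CPM in C mice 2, 8 and 12. Every running mouse stood above every SS and every C mouse, as it did above every C mouse for 6.66% of all genes. Every SS mouse stood below every C mouse, as for 14.2% of all genes. The log2 difference was 0.79 ± 0.12 for SES minus SS and 0.94 ± 0.12 for SER minus SS (standard errors, n = 3 each). These equal 1.72-fold and 1.91-fold higher levels in the running groups. SS minus C was −0.42 ± 0.12. Thus the group means ran SER, SES, C, SS from high to low, and only the SER and SES levels overlapped along that order.

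Sox9 levels did not overlap between the running groups. The gene had 66.3, 71.2 and 72.4 CPM in SES mice 9, 10 and 12, and 99.5, 94.8 and 98.8 CPM in SER mice 6, 19 and 20. It had 59.3, 59.1 and 51.4 CPM in SS mice 18, 19 and 21 and 68.3, 57.7 and 49.4 CPM in C mice 2, 8 and 12. The SER mice stood above all 9 others. Over all genes, SER lay wholly above SS for 8.84%, above C for 12.6% and above SES for 5.36%. The share for all of these at once was not computed. The SES mice stood above the SS mice but overlapped the C mice, and SS overlapped C. The log2 difference was 0.31 ± 0.11 for SES minus SS and 0.79 ± 0.11 for SER minus SS, while SS minus C was −0.05 ± 0.11. The nearest running and SS mice for this gene were SES mouse 9 and SS mouse 18, 0.16 apart on the log2 scale, the smallest such gap among the 4 genes.

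Fam107a was the most abundant member. It had 1109, 1029 and 1256 CPM in SES mice 9, 10 and 12 and 1291, 1313 and 1257 CPM in SER mice 6, 19 and 20. It had 866, 636 and 700.4 CPM in SS mice 18, 19 and 21 and 586, 671 and 527 CPM in C mice 2, 8 and 12. All running mice stood above all sedentary mice, stressed or not, and SS and C levels overlapped. Over all genes, 3.34% had every running mouse above every SS mouse and 6.66% above every C mouse. The share for both at once was not computed. The log2 difference was 0.62 ± 0.12 for SES minus SS, 0.81 ± 0.12 for SER minus SS, and 0.30 ± 0.12 for SS minus C. Against C it was 0.93 ± 0.13 in SES and 1.11 ± 0.13 in SER, the second of which is a 2.16-fold level and the largest group difference of any member. Fam107a was the only member whose SS mean lay above the C mean. SS mouse 18 was the highest SS mouse: without it SS minus C was 0.16, and without the other SS mice SES minus SS was 0.40.

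Git1 had 491, 500.2 and 442 CPM in SES mice 9, 10 and 12 and 582, 499 and 554 CPM in SER mice 6, 19 and 20. It had 381, 338 and 328 CPM in SS mice 18, 19 and 21 and 365, 443 and 364 CPM in C mice 2, 8 and 12. All running mice stood above all SS mice, but C mouse 8 stood just above SES mouse 12, so SES and C overlapped, as did SS and C. The log2 difference was 0.45 ± 0.10 for SES minus SS, 0.64 ± 0.10 for SER minus SS and −0.16 ± 0.10 for SS minus C. All 3 SER mice stood above all C mice (SER minus C 0.48 ± 0.10), as they did for every member and for 12.6% of all genes.

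**Figure D1:**
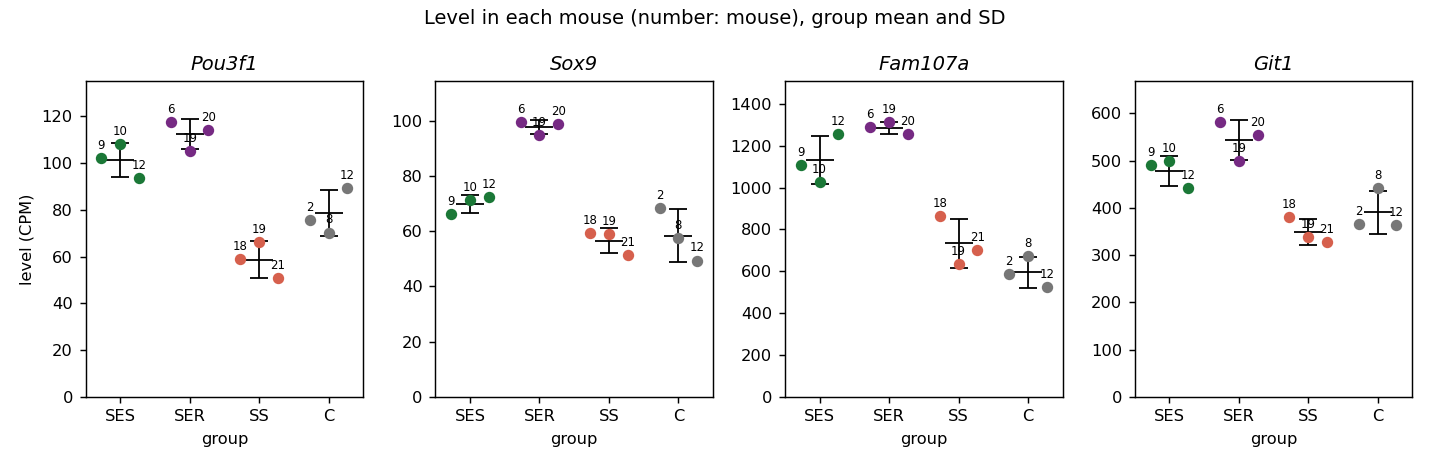
Level in CPM (y axis, from 0) of each gene in each mouse, by group; points are mice with their numbers, black bars the group mean and SD (n = 3). All SES and SER points lie above all SS points in the 4 panels, and C lies beside SS for Sox9, Fam107a and Git1 but between SS and the running groups for Pou3f1.

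Of 14541 genes tested, 485 (3.34%) had every running mouse above every SS mouse, and 393 (2.7%) had every running mouse below. All 4 members are among the 485, which the choice of members fixes. Taken singly, SES lay wholly above SS for 6.33% of genes and SER wholly above SS for 8.84%. The gap between the lowest running and the highest SS mouse was 0.49 on the log2 scale for Pou3f1, which 6 genes exceeded. It was 0.25 for Fam107a, 0.21 for Git1 and 0.16 for Sox9, which 27, 38 and 64 genes exceeded. The members were chosen for this separation, so these ranks are a description only. Without SS mouse 18, SES minus SS was 0.79 for Pou3f1, 0.34 for Sox9, 0.76 for Fam107a and 0.52 for Git1, and SER minus SS was 0.95 for Pou3f1, 0.83 for Sox9, 0.95 for Fam107a and 0.72 for Git1. Without SS mice 19 and 21, SES minus SS was 0.79 for Pou3f1, 0.25 for Sox9, 0.40 for Fam107a and 0.33 for Git1, and SER minus SS was 0.94 for Pou3f1, 0.73 for Sox9, 0.58 for Fam107a and 0.53 for Git1. All of these lay above 0, which the choice of members had fixed beforehand, since every running mouse stood above every SS mouse. The Sox9, Fam107a and Git1 values were smaller against mouse 18 alone. Per kilobase of transcript, the order of the genes was the same in each group. In SES, SER, SS and C mice Fam107a averaged 359, 408, 233 and 189 CPM per kb and Git1 136, 155, 99.4 and 111 CPM per kb. Pou3f1 averaged 26.3, 29.2, 15.2 and 20.4 CPM per kb and Sox9 16.9, 23.6, 13.7 and 14.1 CPM per kb. The Pou3f1 values rest on a GENCODE length of 3849 bases, which exceeds its single-exon RefSeq span, and would be higher with that span.

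SES against SER asks whether levels went with the behavioural response to running, and it is the comparison that the choice of members used least. Genes high in SER mice were still favoured, since 3 of the 4 had passed the test in SER against SS in the earlier look. SES minus SER was below 0 for all 4 genes, and none passed edgeR's quasi-likelihood test over all genes. Sox9 averaged 70.0 ± 3.26 CPM in SES and 97.7 ± 2.54 CPM in SER (SD, n = 3 each). Its log2 difference was −0.48 ± 0.11 (95% interval −0.72 to −0.24), with an edgeR p of 0.000722 before and an adjusted p of 0.9997 after Benjamini-Hochberg correction. Every SES mouse stood below every SER mouse for this gene. Git1 differed by −0.19 ± 0.10 (−0.41 to 0.03), Fam107a by −0.19 ± 0.12 (−0.45 to 0.08) and Pou3f1 by −0.15 ± 0.12 (−0.40 to 0.10), each with an edgeR adjusted p of 0.9997. Fam107a levels in SES and SER mice did not overlap, by a margin of about 1 CPM (1256 CPM in SES mouse 12 and 1257 CPM in SER mouse 20), while those of Pou3f1 and Git1 did overlap. Over all genes 5.36% had SES wholly below SER and 5.4% wholly above. The test called 4 genes, all higher in SES (0.0275% of those tested), and each of these was listed at 0 in all 3 SER mice. In the mice of the other groups 1 of them had 56579 to 274209 counts and another 220 to 546. Whether these zeros belong to the SER mice or to how their tables were made cannot be told apart here. At an unadjusted p under 0.05 there were 257 genes higher and 284 lower in SES, and DESeq2 called 6 and limma-voom 3.

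**Figure D2:**
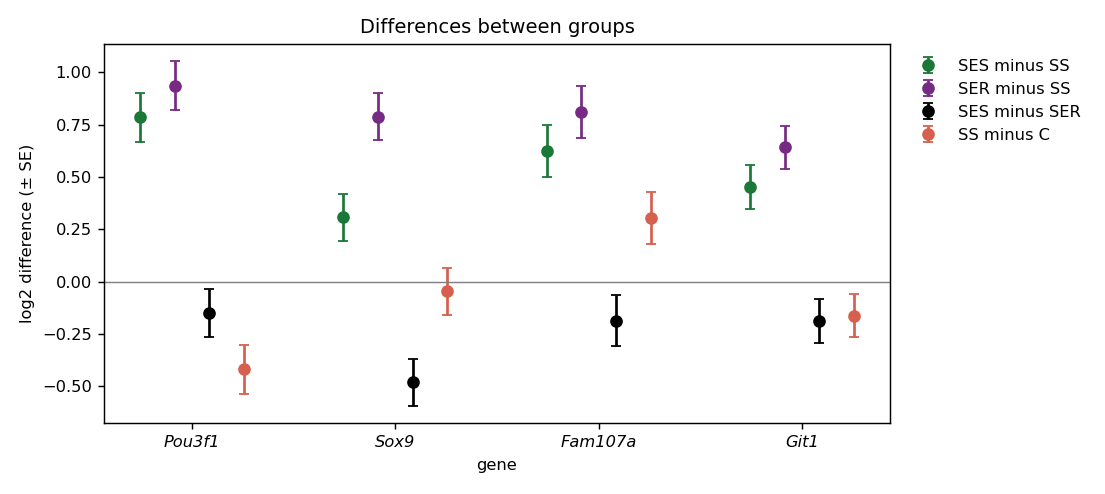
Log2 difference with its standard error (y axis) of the 4 genes for SES minus SS, SER minus SS, SES minus SER and SS minus C. SES minus SER is nearest 0 for Pou3f1 (−0.15) and farthest for Sox9 (−0.48), and SS minus C has its lowest value at Pou3f1 (−0.42) and its highest at Fam107a (0.30).

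The genes that surround the members in their known roles were followed in 7 lists of 110 genes, of which 108 were tested. These lists leave out the members. In SES against SER, SES against SS and SER against SS, edgeR called 0 of the 108 genes in either direction. At an unadjusted p under 0.05 there were 4 higher and 12 lower for SES against SER, 18 higher and 2 lower for SES against SS, and 34 higher and 6 lower for SER against SS. DESeq2 called 0, 1 and 16 of them in the same order, and limma-voom 0 in each. Over all genes edgeR called 0% for SES against SS and 0.0481% for SER against SS (0.0206% higher and 0.0275% lower).

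For SES against SER the smallest p-values among list genes belonged to Slc4a4, a bicarbonate transporter gene of astrocytes (−0.31 ± 0.09), Slc1a2, the main astrocyte glutamate transporter (−0.37 ± 0.12), Sox2, a progenitor and glial factor (−0.40 ± 0.13), and Ppfia4, a liprin gene (−0.27 ± 0.09), each with an edgeR adjusted p of 0.9997. The glucocorticoid-induced genes lay the other way, with 16 of 19 above 0 and a median of 0.16, and Cdkn1a, the cell cycle inhibitor p21, had 1.00 ± 0.39.

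For Sox9 the lists were astrocyte markers and regulators of the glial lineage. All 18 astrocyte markers had a log2 difference above 0 for SER minus SS, with a median of 0.33, against a median of −0.02 over all genes. For SES minus SS 14 of 18 did, with a median of 0.13, and for SES minus SER 1 of 18 did, with a median of −0.17. Slc1a2 averaged 4428 ± 651 CPM in SES, 5737 ± 626 CPM in SER and 3565 ± 130 CPM in SS (SD, n = 3 each). Its edgeR adjusted p was 0.0709 for SER against SS (0.69 ± 0.12) and 0.524 for SES against SS (0.31 ± 0.12). Ndrg2, whose product is a cytoplasmic protein of astrocytes, was next in SER against SS (0.45 ± 0.11, edgeR adjusted p = 0.109). In SES against SS the connexin gene Gjb6 (0.54 ± 0.14) and the glutamine synthetase gene Glul (0.33 ± 0.12) had the smallest p, with an edgeR adjusted p of 0.524 each. Among 16 glial regulators the median was 0.12 for SER minus SS and 0.04 for SES minus SS. Sox2 had 81.4 ± 10.2 CPM in SER and 54.9 ± 1.44 CPM in SS (0.57 ± 0.13, adjusted p = 0.0941). Sox8 and Sox10, the nearest relatives of Sox9, had −0.09 ± 0.13 and 0.07 ± 0.11 in the same comparison and −0.27 ± 0.13 and −0.11 ± 0.11 for SES minus SS, none of which passed.

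For Pou3f1 the lists were the other POU genes and markers of CA1 and the subiculum. Of 8 POU genes 6 had enough counts to be tested, and their median was 0.44 for SER minus SS and 0.21 for SES minus SS. Pou3f2 had 27.7 ± 1.90 CPM in SER and 17.6 ± 1.41 CPM in SS (0.65 ± 0.14, adjusted p = 0.0914) and Pou3f3 97.4 ± 17.9 CPM in SER and 68.4 ± 4.15 CPM in SS (0.51 ± 0.13, adjusted p = 0.113). Both encode neural POU factors close to Pou3f1. For SES minus SS they had 0.33 ± 0.14 and 0.35 ± 0.13 (edgeR adjusted p = 0.524 each). Of 11 CA1 and subiculum markers 10 had a difference above 0 both for SER minus SS (median 0.60) and for SES minus SS (median 0.37). Markers of other hippocampal fields lay the other way: 1 of 7 dentate granule markers was above 0 in each comparison (medians −0.20 and −0.16), as were 2 and 1 of 6 CA2 and CA3 markers (medians −0.22 and −0.11). The sums differed between SS mice. Dentate markers summed to 338 CPM in SS mouse 18 and 433 and 455 CPM in SS mice 19 and 21. They summed to 331 to 408 CPM in SES and 274 to 381 CPM in SER. CA2 and CA3 markers summed to 560 CPM in SS mouse 18 and 333 and 342 CPM in SS mice 19 and 21. Their sums were 334 to 458 CPM in SES and 339 to 399 CPM in SER. None of the markers of these fields was called by edgeR, and the part of the sampled fields in the Pou3f1 levels was not tested. Man1a, a mannosidase gene, had 0.78 ± 0.21 for SER minus SS and 0.61 ± 0.21 for SES minus SS. Spink8, a protease inhibitor gene, had 0.87 ± 0.29 for SES minus SS (edgeR adjusted p = 0.524).

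For Git1 the list was its binding partners and their neighbours. The median of the 21 genes was 0.04 for SER minus SS and 0.01 for SES minus SS. Git1 itself had 0.64 and 0.45, but Git1 was chosen for lying above SS in both, so this distance was favoured beforehand. Git2, its close relative, had −0.21 ± 0.15 for SER minus SS and −0.16 ± 0.15 for SES minus SS. Pxn, which encodes the focal adhesion adaptor paxillin, had the smallest p of the list in SER against SS, with 17.1 ± 3.10 CPM in SER and 27.8 ± 2.70 CPM in SS (−0.70 ± 0.14, adjusted p = 0.0857). The kinase gene Pak3 had 0.27 ± 0.09 for SER minus SS and 0.25 ± 0.09 for SES minus SS (edgeR adjusted p = 0.153 and 0.524).

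For Fam107a the lists were actin regulators and genes induced by glucocorticoids. The 17 actin genes had a median of 0.17 for both SER minus SS and SES minus SS. The Arp2/3 subunit gene Actr2 had the smallest p in both (0.37 ± 0.11, adjusted p = 0.129, and 0.33 ± 0.11, adjusted p = 0.524). Fam107b, the only relative of Fam107a in the list, had 0.21 ± 0.13 for SER minus SS and 0.04 ± 0.13 for SES minus SS. The 19 glucocorticoid-induced genes had a median of 0.02 for SER minus SS, with 10 above 0, and of 0.21 for SES minus SS, with 15 above 0. The metallothionein gene Mt2 had 465 ± 40.7 CPM in SES, 455 ± 47.6 CPM in SER and 266 ± 66.3 CPM in SS, and its differences of 0.81 ± 0.18 and 0.78 ± 0.18 did not pass (adjusted p = 0.524 and 0.106). Mt1, another metallothionein gene, was next in SER against SS (0.51 ± 0.15, edgeR adjusted p = 0.130).

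**Figure D3:**
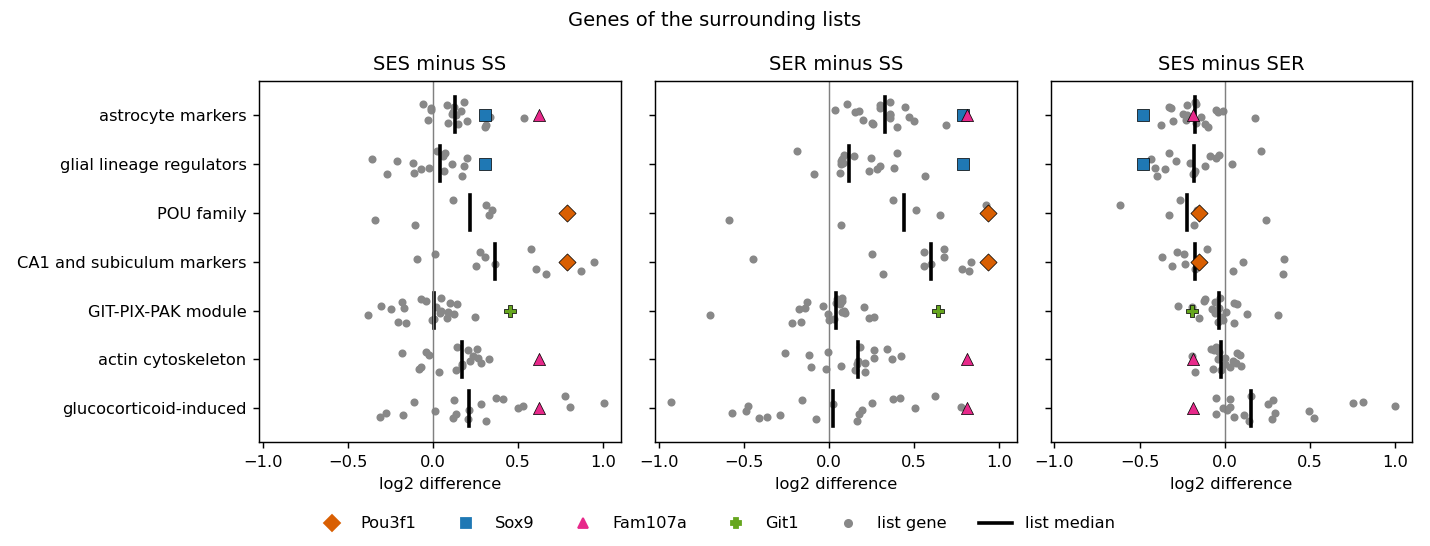
Log2 difference (x axis) of each tested gene of the 7 lists (grey points, 1 row a list) with the list median (black bar), for SES minus SS, SER minus SS and SES minus SER; coloured symbols are the members, drawn in the rows of the lists chosen for them. Astrocyte markers lie to the right of 0 in SER minus SS, with a median of 0.33. The GIT-PIX-PAK genes centre at 0.04 there, with Git1, a member chosen for lying above SS, at 0.64.

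In SS against C edgeR called 10 of the 108 list genes higher and 4 lower, where 9.83% of all genes were called (5.21% higher and 4.63% lower). Of the glucocorticoid-induced genes 5 rose: Hif3a, a hypoxia-inducible factor gene (1.42 ± 0.21), the clock gene Per1 (0.78 ± 0.17), Ddit4, an inhibitor of mTOR signalling (0.60 ± 0.18), the phagocytosis receptor gene Mertk (0.53 ± 0.12) and the transcription factor gene Zbtb16 (0.49 ± 0.12), with adjusted p-values from 0.0223 to 0.0488. Of the GIT-PIX-PAK genes, Pxn (0.67 ± 0.14) and the liprin gene Ppfia1 (0.43 ± 0.12) rose, and Pak3 (−0.37 ± 0.09) and the small GTPase gene Cdc42 (−0.34 ± 0.09) fell. Among actin genes Dbn1, which encodes drebrin of dendritic spines, rose (0.51 ± 0.10) and the profilin gene Pfn2 fell (−0.34 ± 0.10). The growth factor receptor gene Fgfr3 (0.42 ± 0.11) rose and the claudin gene Cldn10 (−0.46 ± 0.11) fell among astrocyte markers, and Notch2 (0.54 ± 0.15) rose among glial regulators. In the same comparison 5 of 6 nuclear noncoding RNAs were called higher (median 2.63), and with their level as a covariate 0 of the 108 list genes were called. All 7 dentate granule markers also had a difference above 0 (median 0.62), of which C1ql2 and Rfx3 were called, and these markers summed to 338 to 455 CPM in SS and 235 to 308 CPM in C. Without SS mouse 19, SS mouse 21 or C mouse 8 none of these 108 genes was called, and without SS mouse 18 there were 13 higher and 18 lower, beside 13.6% and 12.2% of all genes. Without C mouse 12 there were 2 and without SER mouse 20 there were 8.

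**Figure D4:**
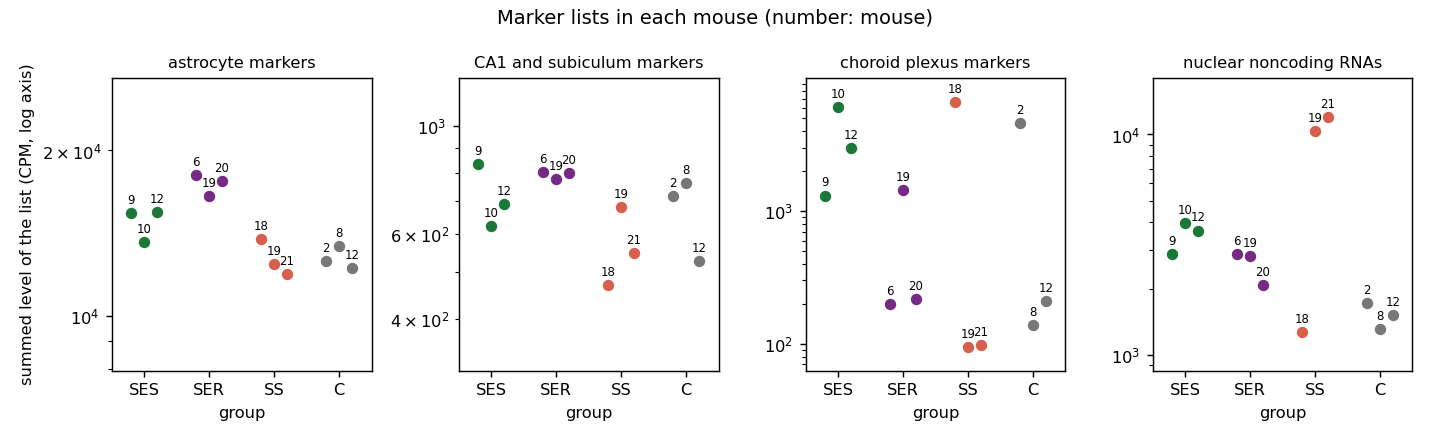
Summed CPM (log axis) of 4 marker lists in each mouse, by group, with mouse numbers. SER mice hold the 3 highest astrocyte values, SS mouse 18 stands apart from SS mice 19 and 21 for choroid plexus markers and nuclear noncoding RNAs, and SER mice stand above SS and C mice for CA1 markers, where SES mice overlap both.

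Levels of the members were also set beside those of markers of astrocytes and neurons. The summed level of the 18 astrocyte markers was 13606 to 15482 CPM in SES, 16507 to 18038 CPM in SER, 11907 to 13789 CPM in SS and 12203 to 13423 CPM in C. Per 1000 CPM of these markers, Sox9 stood at 4.31 to 5.23 CPM in SES, 5.52 to 5.74 CPM in SER, 4.30 to 4.76 CPM in SS and 4.05 to 5.43 CPM in C. On that scale SER mice stood above all others, and SES mice overlapped both SS and C. Fam107a on the same scale stood at 72.1 to 81.1 CPM in SES, 71.4 to 79.5 CPM in SER, 51.2 to 62.8 CPM in SS and 43.2 to 49.99 CPM in C. Running mice stood above all sedentary mice on that scale, and SES overlapped SER. Per 1000 CPM of the CA1 and subiculum markers, Pou3f1 stood at 122 to 173 CPM in SES, 135 to 146 CPM in SER, 92.4 to 125 CPM in SS and 92.0 to 169.8 CPM in C, so that SES overlapped SS, and both SES and SER overlapped C, while SER did not overlap SS. The CA1 and subiculum markers themselves summed to 623 to 836 CPM in SES, 779 to 803 CPM in SER, 470 to 683 CPM in SS and 527 to 764 CPM in C. Per 1000 CPM of 7 pan-neuronal markers, Git1 stood at 74.8 to 89.6 CPM in SES, 81.7 to 107 CPM in SER, 57.3 to 58.5 CPM in SS and 53.1 to 68.9 CPM in C, with no overlap between running and sedentary mice. Oligodendrocyte markers were at 4664 to 7419 CPM in SES, 4507 to 8106 CPM in SER, 3487 to 11072 CPM in SS and 5975 to 9838 CPM in C. Microglia markers were at 411 to 499 CPM in SES, 535 to 543 CPM in SER, 410 to 466 CPM in SS and 449 to 467 CPM in C, and here the SER mice stood above all others. Endothelial markers lay the other way, at 96.0 to 155 CPM in SES, 94.0 to 108 CPM in SER, 107 to 160.1 CPM in SS and 142 to 210.1 CPM in C. For SER minus SS 0 of 6 endothelial markers were above 0 (median −0.42), 3 had an unadjusted p under 0.05, and edgeR called none. All markers of these lists had counts in most mice, and the choroid plexus genes Folr1, Otx2 and Slc4a5 were at 0 in 2, 1 and 1 of the 12. The members were chosen for high levels in running mice, so separation of running from sedentary mice on the marker scales was favoured beforehand. How many of all genes separate on such scales was not computed. The part of these cell types in the members' levels was not tested.

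Without SS mouse 18 many more genes were called, and several were list genes. The SS group then held only mice 19 and 21, whose nuclear noncoding RNAs summed to 10367 and 11970 CPM, against at most 3949 CPM in any other library. Mouse 18, at 1270 CPM, lay near the C mice in this and apart in its choroid plexus markers. Of the 6 nuclear RNAs 5 were then called lower in SER against SS and 4 in SES against SS, and their part in the calls that follow was not tested. For SER against SS edgeR then called 29 of the 108 list genes higher and 4 lower, beside 7.49% higher and 9% lower over all genes. Of 18 astrocyte markers 10 rose, led by Glul (0.63 ± 0.10, adjusted p = 0.00144), S100b, which encodes a calcium-binding protein (0.60 ± 0.10), and the filament gene Gfap (0.92 ± 0.16, adjusted p = 0.00211). Of 6 POU genes 3 rose, Pou3f2 (0.60 ± 0.15), Pou3f3 (0.49 ± 0.15) and Pou6f1 (0.37 ± 0.12), with adjusted p-values from 0.0140 to 0.0436. Of 17 actin genes 7 rose and Dbn1 fell (−0.38 ± 0.08, adjusted p = 0.00486), while of 21 GIT-PIX-PAK genes Pak2 rose and Pxn fell. For SES against SS, where 3.26% of all genes were called higher and 5.43% lower, 16 list genes rose and 2 fell. Of 19 glucocorticoid-induced genes 6 rose and Per1 fell (−0.49 ± 0.13). The 6 were the lipid droplet gene Plin4 (2.29 ± 0.43), Cdkn1a (1.33 ± 0.25), Mt2 (1.02 ± 0.17), Mt1 (0.65 ± 0.15), Fkbp5, which encodes a cochaperone of the glucocorticoid receptor (0.63 ± 0.18), and the transcription factor gene Klf9 (0.62 ± 0.10), with edgeR adjusted p-values from 0.00241 to 0.0418. Of 17 actin genes 5 rose, Arpc2, Arpc3, Actr2, Actr3 and Capza2, and Dbn1 fell. Also called higher were 4 astrocyte markers, among them Gjb6 (0.71 ± 0.13, adjusted p = 0.00428), and the CA1 marker Spink8, with 0 called among POU, GIT-PIX-PAK and glial regulator genes. In SER against SS 4 glucocorticoid-induced genes rose (Klf9, Mt2, Mt1 and Plin4) and Per1 fell. For SES against SER edgeR called none of the 108, beside 0.0271% of all genes, each higher.

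The genes whose levels over the 12 libraries were most like those of each member were found by Pearson's r of log2 CPM. The libraries, and so their group differences and depth, are shared by all these genes, and r is given as a description. For Pou3f1 they were Igfbp4 (r = 0.956), which encodes an inhibitor of insulin-like growth factors, Inafm2 (0.910), Pik3ap1 (0.909), the neurotrophin gene Bdnf (0.883) and Zfpm1 (0.877), a cofactor of GATA factors. Bdnf averaged 53.0 CPM in SES, 51.2 CPM in SER, 40.0 CPM in SS and 47.6 CPM in C. For Sox9 they were the gene of the inositol trisphosphate receptor, Itpr1 (0.948), Zbtb38 (0.926), Zfp36l1 (0.924), which encodes a protein of mRNA decay, Aff3 (0.915) and Zfp106 (0.902). Itpr1 averaged 491 CPM in SES, 663 CPM in SER, 359.6 CPM in SS and 372 CPM in C, with SER apart from SES as for Sox9. For Fam107a they included the orphan receptor gene Gpr27 (0.954), the transcription factor gene Tfcp2l1 (0.936), Mcc (0.935) and Camk2a (0.932), the kinase of synaptic plasticity. Tfcp2l1 averaged 11.8 CPM in SES, 10.5 CPM in SER, 6.16 CPM in SS and 4.83 CPM in C. For Git1 they were Pum2 (0.931), which encodes a repressor of translation, the Rac exchange factor gene Prex2 (0.924), Zfpm1 (0.920), the adaptor gene Shc3 (0.916) and Wdr44 (0.913). Zfpm1 stood in the list of both Pou3f1 and Git1. With the 3 SS libraries left out, Pik3ap1 and Zfpm1 remained among the 5 highest for Pou3f1 and Zbtb38 for Sox9. For Fam107a and Git1 0 of the 5 did. This counts ranks, and r itself was then 0.936 (Tfcp2l1) to 0.958 (Mcc) for the genes named for Fam107a. For Git1 it was 0.853 (Wdr44) to 0.919 (Prex2), for Sox9 0.892 (Zfp106) to 0.947 (Zbtb38) and for Pou3f1 0.729 (Bdnf) to 0.959 (Zfpm1). Taken on deviations from the group means, r over all libraries ran from 0.256 (Inafm2) to 0.913 (Gpr27) among the named genes.

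**Figure D5:**
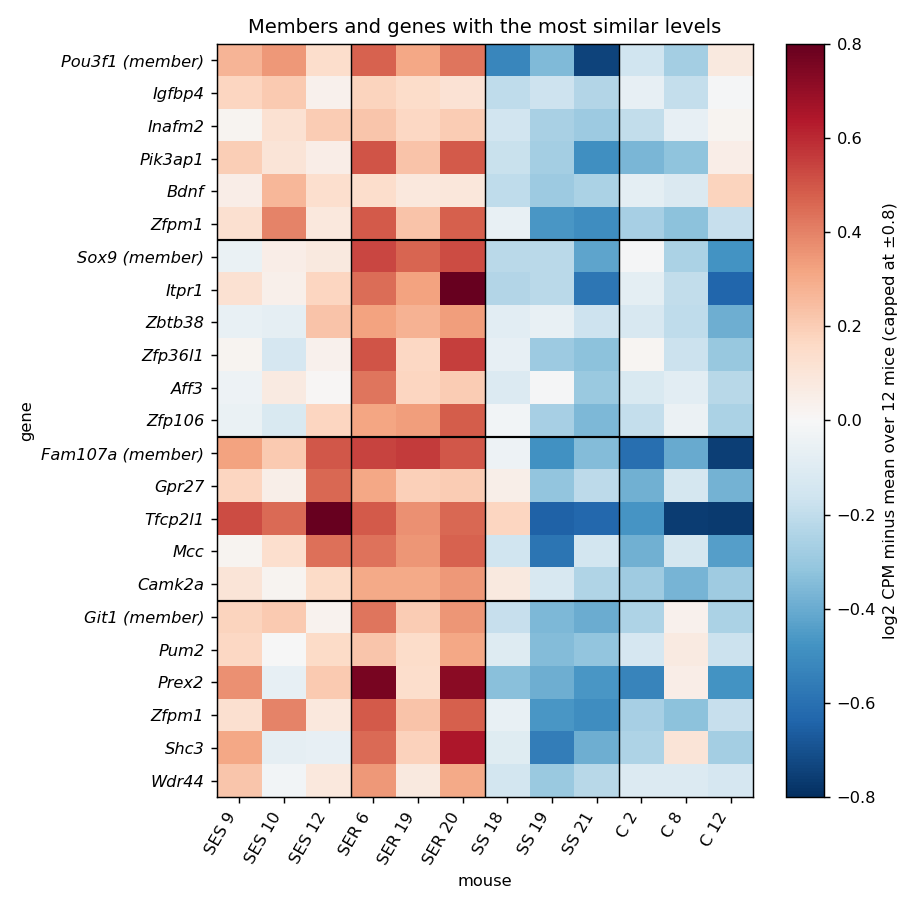
Log2 CPM minus the mean over 12 mice (colour, capped at ±0.8) of each member and the genes with the most similar levels (rows, 5 for Pou3f1, Sox9 and Git1 and 4 for Fam107a), in each mouse (columns, SES, SER, SS, C). Running mice are mostly red and sedentary mice mostly blue, and in the Sox9 block the SER columns are redder than the SES columns, as in its levels of 97.7 CPM in SER and 70.0 CPM in SES.

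Within the groups the members did not move as a unit. In SS, mouse 18 was the highest of the 3 for Fam107a and Git1, and for Sox9 by a small margin, but not for Pou3f1, which was highest in mouse 19. In C, mouse 12 was the highest for Pou3f1 and the lowest for the other 3 genes. In SES, mouse 12 was the highest for Fam107a and Sox9 and the lowest for Pou3f1 and Git1. In SER, mouse 19 was the lowest for Pou3f1, Sox9 and Git1 and the highest for Fam107a. The coefficient of variation within a group was smallest for Fam107a in SER (2.20%) and largest for Sox9 in C (16.2%).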

How the data were processed

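The authors deposited 1 table per mouse of whole-number estimated counts per RefSeq transcript, not normalized. Per the submitters' processing notes, TopHat and mm10 were used. Which program counted the reads, whether it used strand, and from which annotation release, is not given in the sources used here. Per the labels' protocols, 1.3 µg of total RNA per mouse went into a directional library. Rows were summed per symbol, and rounding changed no value. Genes passing filterByExpr (minimum count 10) were scaled by TMM and fitted in edgeR 4.0.16 (R 4.3.3, quasi-likelihood F test, all 12 libraries, 8 residual degrees of freedom), with Benjamini-Hochberg adjustment over 14541 genes and calls at an adjusted p under 0.05. Standard errors come from the F statistic. The spread between 3 mice a group sets the precision: members had at least 575 counts in every library. Log2 CPM for likeness used a prior count of 2. Sequences and coordinates are RefSeq's (GRCm38.p6), and transcript lengths GENCODE's. The fit was also run on simulated counts with known changes in SES. That simulation held no differing kinds of library within a group, so it does not cover the SS libraries seen here.

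Members and lists were chosen with earlier results of these data known. Named genes were the members and their paralogs, per list and comparison the called genes (up to 4 a direction by p) or, with none called, the 2 of smallest p, and the 5 most similar genes per member; not every such gene is printed, and 1 gene similar to Fam107a is not reported here. The last of 5 called glucocorticoid-induced genes was added after its values were seen. For calls without SS mouse 18, examples were chosen after their values were seen. DESeq2 1.42.0, limma 3.58.1, other filters, factors, covariates and left-out libraries were alternatives; those for SES and SER against C were chosen after seeing the data.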

Additional observations from a re-analysis of the deposited data

How the results depend on the processing

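No paired analysis was possible because the groups compared share fewer than 2 mouse numbers, and the numbers name separate animals.

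For SES minus SER all 4 members stayed below 0 and none was called in 25 alternatives each, with edgeR, DESeq2 or limma-voom adjusted p-values from 0.0786 to 1 for Sox9 and from 0.649 to 1 for the others. Sox9 ranged from −0.56 to −0.45. SES minus SS and SER minus SS stayed above 0 for all members, which their choice for lying above SS favoured beforehand. With SS mice 19 and 21 left out, so that a lone SS library is assumed to vary like the rest, Fam107a had 0.40 and 0.58, Git1 0.33 and 0.53, and Fam107a 0.54 for SS minus C. The last was 0.52 with the nuclear RNA covariate. Sox9 for SS minus C took either sign (−0.15 to 0.07).

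Called list genes for SES against SS numbered 1 by DESeq2, 20 without C mouse 2 and SS mouse 18, and 0 to 18 with single libraries left out. For SER against SS they numbered 16 by DESeq2, 1 without a filter, 1 with the choroid plexus covariate, 35 without C mouse 2 and SS mouse 18, and 0 to 33 with single libraries left out. For SS against C they numbered 22 by DESeq2, 0 in a fit of only the 2 groups, 0 with nuclear RNA as covariate, 28 when C mouse 2 and SS mouse 18 were both dropped, 0 without SS mice 19 and 21, and 0 to 31 with single libraries left out (31 without SS mouse 18, 8 without SER mouse 20, 2 without C mouse 12). Over all genes SES against SS gave 0 calls, 13 by DESeq2 and 1283 without SS mouse 18. SER against SS gave 7 calls, 2434 without SS mouse 18, 538 by DESeq2 and 4 without SER mouse 6, and SS against C gave 1430, 3797 without SS mouse 18 and 0 without SS mouse 19, SS mouse 21 or C mouse 8. Of the 5 similar genes per member, 2, 1, 0 and 0 remained among the 5 highest without SS libraries for Pou3f1, Sox9, Fam107a and Git1. The cause was not tested. With 3 mice each and adjustment over 14541 genes, even the SES minus SER difference of Sox9 (−0.48, 95% interval −0.72 to −0.24) was not called. The lack of a call between the running groups therefore does not show equal levels.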
